A study of Monodelphis domestica with 9 samples.

Results

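The transcripts of the mitochondrial genome are the 32 TSS groups (sets of transcripts that share a transcription start site) whose locus the deposited table places on chrMT, of 37421 TSS groups listed for condition q2 against q1. All 32 are listed at an FPKM of exactly 0 in q1 and in q2, so no ratio of q2 to q1 exists for any of them, and their share of the total FPKM is 0% in both conditions. FPKM counts sequenced fragments relative to the length of the transcript and the size of the library. The 0 values are listings, and they do not show whether mitochondrial RNA was present. Some nuclear genes, such as ATP5B of ATP synthase, are also listed at 0, on the unplaced sequence chrUn. Why these values are 0 was not tested.

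The RNA came from opossums (Monodelphis domestica), with 3 animals at each of P16, P18 and P20 (postnatal days 16, 18 and 20). A laser was used to isolate the junction of Meckel's cartilage (MC) and the malleus from frozen sections, so that some perichondrium can be included, and the RNA was amplified before sequencing. No treatment or genotype separates the animals. The table gives 1 mean per condition, coded q1, q2 and q3, and no source used here pairs these codes with the stages. It has no value per animal, so no error or depth can be given for any value, and no new test could be run. The authors' own test results, which the table also holds, were not used. It holds no row of a mitochondrial TSS group for q3.

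The mitochondrial genome is a small circle inside the organelle. In vertebrates it encodes a few subunits of respiratory complexes I, III, IV and V, the rRNAs of the mitochondrial ribosome and a set of tRNAs, and all other mitochondrial proteins come from nuclear genes. It is transcribed as long RNAs that are cut at the tRNAs, and most of its mRNAs then receive poly(A) tails. In most animal tissues its mRNAs are among the most abundant transcripts of a cell.

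All 13 proteins of the mitochondrial genome have a named TSS group. Complex I passes electrons from NADH to ubiquinone, and its 7 subunits are listed as MT-ND1, NADH2, NADH3, MT-ND4L, NADH4, MT-ND5 and NADH6. Each of these has an FPKM of 0 in q1 and 0 in q2. CYTB, the cytochrome b of complex III, is listed at 0 and 0. COI, COII and COIII, the core subunits of complex IV (cytochrome c oxidase), are each listed at 0 and 0, as are ATP6 and ATP8, subunits of complex V (ATP synthase). No protein gene thus stands apart from the others, and the complexes cannot be compared.

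The locus of MT-ND1 is on chromosome MT from 2755 to 3846, that of NADH2 from 3916 to 5105, and that of CYTB from 14185 to 15408. No source used here gives the genome build of these positions. The other 10 protein genes share 1 locus, from 5406 to 14182, with 7 unnamed TSS groups. For these 17 the table gives the bounds of the joined locus of 8777 bases and not those of the gene. The loci of MT-ND1, NADH2 and CYTB are also shared with unnamed TSS groups, so their bounds need not be those of the gene alone, and 24 of the 32 groups in all lie on a shared locus. NADH3 and NADH6 each share their TSS group with an Ensembl ID.

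The other 19 TSS groups carry Ensembl IDs only, and the 32 groups hold 36 names or IDs in all. The RefSeq table used here (assembly mMonDom1) lists no Ensembl IDs and no gene under a mitochondrial symbol or chromosome, so none of the 23 Ensembl IDs could be named. Therefore rRNA and tRNA genes could not be told apart by name, and only their loci are described. Of the unnamed groups 8 have a locus free of protein genes. ENSMODG00000021559 spans 956 bases (71 to 1026) and ENSMODG00000021560 spans 1579 bases (1099 to 2677), and both lie ahead of MT-ND1, where vertebrate mitochondrial genomes hold their rRNA genes. A further 5 span 67 to 74 bases, in the range of single tRNAs, and 1 of 139 bases holds a pair of IDs. The remaining 11 lie on the loci of protein genes. Long or short, all 19 are listed at 0 in q1 and in q2.

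A listing of 0 in both conditions is given to 12.5% of all 37421 TSS groups. On chromosomes 1 to 8 and X it is given to 3416 of 36160 (9.45%), with 8.19% on chromosome 1 at the low end and 15.8% on chromosome X at the high end. On the mitochondrial genome it is 32 of 32. The only other sequence of this kind is chrUn, the unplaced sequence, where all 1229 TSS groups are listed at 0 and 0. The sources used here do not say whether reads were aligned to sequences of these names, and this was not tested.

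**Figure D1:**
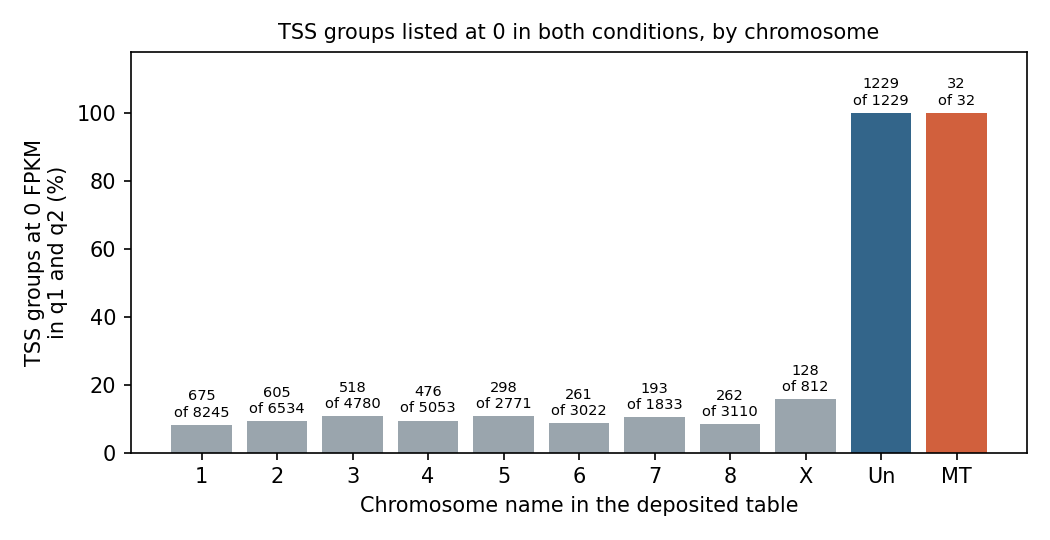
Share of TSS groups (%) with an FPKM of 0 in both q1 and q2 for each chromosome name of the deposited table, with the counts above the bars. The mitochondrial genome (32 of 32) and the unplaced sequence (1229 of 1229) reach 100%, and the other 9 chromosomes lie between 8.19% and 15.8%.

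The listings of 0 were also set beside those of nuclear TSS groups with a locus of like length. On chromosomes 1 to 8 and X, 68 TSS groups have a locus of up to 80 bases. Of these 67 are listed at 0 in both conditions (98.5%), and so are the 5 mitochondrial groups of this length. In this range a 0 is the usual listing and does not set the mitochondrial groups apart. From 81 to 200 bases the nuclear share is 88.3%, beside 1 mitochondrial group. Between 201 and 1000 bases it is 30.7% of 1488, beside ENSMODG00000021559. Between 1001 and 5000 bases it is 23.8% of 3926, while all 8 mitochondrial groups, with MT-ND1, NADH2, CYTB and ENSMODG00000021560 among them, are at 0. Of these 8 only ENSMODG00000021560 has a locus of its own, and the other 7 take their length from a locus shared with other TSS groups. Above 5000 bases it is 4.53% of 30000, beside 17 of 17 on the joined locus. Locus length includes introns in nuclear genes, which mitochondrial genes lack, so the longer bins do not match transcripts of like length.

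**Figure D2:**
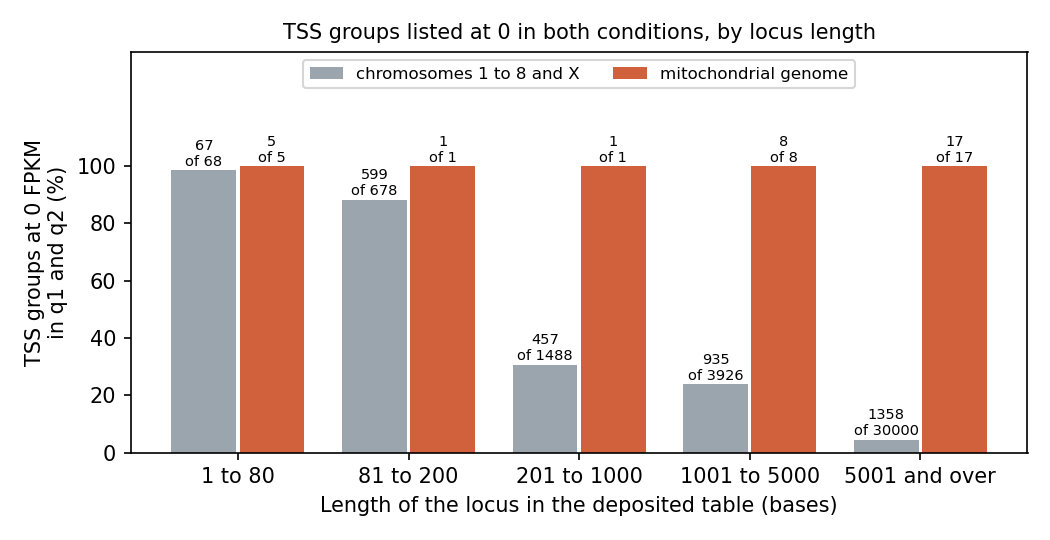
Share of TSS groups (%) at 0 FPKM in both conditions by locus length in bases, for chromosomes 1 to 8 and X (grey) and for the mitochondrial genome (orange), with counts above the bars. The nuclear share drops from 98.5% to 4.53% as loci get longer, and every mitochondrial bin is at 100%.

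The status column of the table marks all 32 mitochondrial TSS groups as not tested. All 4645 nuclear groups at 0 in both conditions carry this mark too, but not every group with the mark is at 0. Of 23026 nuclear groups marked in this way, 4645 (20.2%) are at 0 in both conditions and 18381 have a value above 0 in 1 or both. The table also holds very small estimates. In the rows of q2 against q1, 3966 of 62575 values above 0 are under 0.001, while the mitochondrial values are exactly 0. What such small values measure was not tested. None of the nuclear TSS groups carries the name of a mitochondrial protein gene.

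Subunits of the same complexes that the nucleus encodes were listed with values. Of 72 such genes 56 are in the table, and 51 had a summed FPKM (over the TSS groups of a gene) of at least 1 in both conditions. Of 22659 nuclear genes in the table, 8797 reached this minimum. NDUFA4, long listed under complex I and since placed in complex IV, had 462 summed FPKM in q1 and 762 in q2, and NDUFB1, an accessory subunit of complex I, had 164 and 270. UQCRQ and CYC1 (cytochrome c1) of complex III had 129 and 34.7 in q1, and 322 and 75.6 in q2. Within complex IV, COX7C had 453 and 790 and COX6B1 had 270 and 432. The ATP synthase subunits ATP5J2 and ATP5G1 had 101 and 78.7 in q1, and 261 and 175 in q2. Their partners from the mitochondrial genome, such as COI and ATP6, stand at 0 in the same columns.

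**Figure D3:**
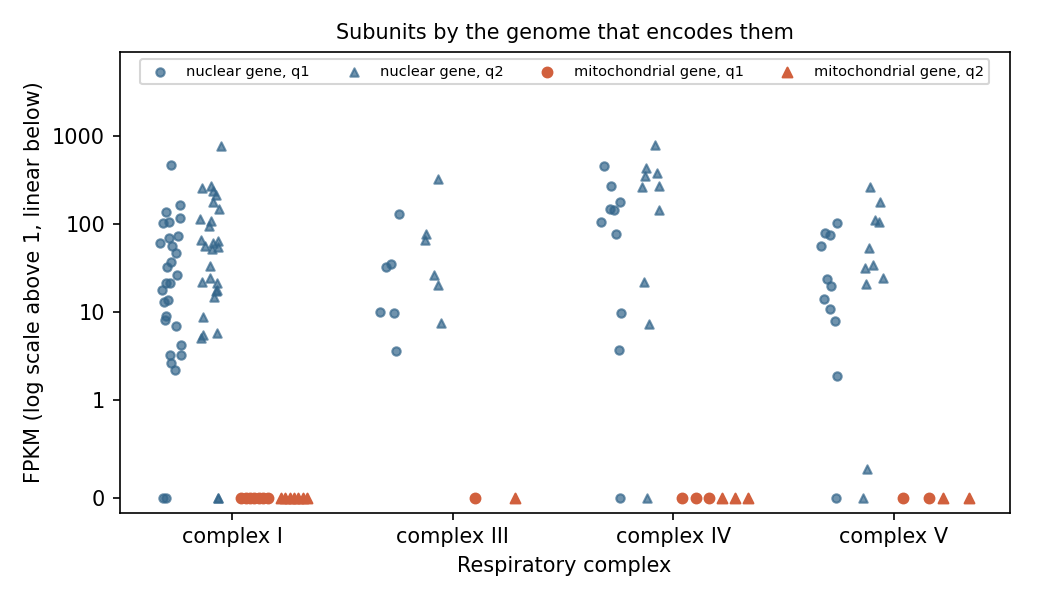
FPKM of subunits of complexes I, III, IV and V in q1 (circles) and q2 (triangles), on an axis that is logarithmic above 1 and linear below, with nuclear genes (blue, summed over TSS groups) and mitochondrial genes (orange). Of the 56 nuclear genes 51 lie at 1 or above in both conditions, and all 13 mitochondrial genes lie at 0. NDUFA4 is plotted under complex I.

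Of the 56 nuclear subunits, 4 are listed at 0 in both conditions, beside 3486 of 22659 nuclear genes. ATP5B, the catalytic beta subunit of ATP synthase, and NDUFV1 and NDUFS8, core subunits of complex I, are on chrUn, and COX7A1, a subunit of heart and skeletal muscle, is on chromosome 4. Over all 8 lists of nuclear genes (subunits of the 4 complexes, and genes of mitochondrial transcription, RNA processing, translation and biogenesis), 7 of 105 genes in the table are at 0, and 6 of these are on chrUn. The other 3 on chrUn are HSD17B10, a subunit of the RNase P that cuts mitochondrial transcripts, SUPV3L1, a helicase of mitochondrial RNA decay, and TSFM, an elongation factor of mitochondrial translation. COL2A1, the main collagen of cartilage, is also on chrUn and at 0, while the other 8 cartilage markers in the table reached 1 FPKM or more in q1 and q2. RPS19, RPS26 and RPL28 of the cytosolic ribosome and TUBA1B, an alpha tubulin, are at 0 there too, and were chosen after their values were seen.

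No mitochondrial TSS group could be counted as higher or lower in q2. At a fold of at least 2, 33.3% of the 29831 TSS groups with both values above 0 were higher in q2 and 17.8% were lower, and 0 of the 32 could enter this count. For the nuclear partners the same step can be described, without a test. The median log2 ratio of q2 to q1 was 1.002 over the 52 nuclear subunits with values in both, beside 0.50 over 16875 nuclear genes. Of these 52, 26 were at least 2-fold higher in q2 and 1 was at least 2-fold lower, where 27.9% and 12.02% of nuclear genes were. Among genes with a summed FPKM of at least 1 in both conditions, 26 of 51 subunits were at least 2-fold higher and 0 lower, where 24.2% and 1.97% of 8797 nuclear genes were, and the medians were 1.02 and 0.58. The one that was lower is ATP5G2, from 1.87 to 0.298. By complex, the counts of at least 2-fold higher were 11 of 27 for complex I, 6 of 6 for III, 4 of 9 for IV and 5 of 10 for V. NDUFA4, which was less than 2-fold higher, is counted here under complex I. Whether the subunits encoded by the mitochondrial genome moved with them cannot be read from these values.

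The list for transcription and replication of the mitochondrial genome has 10 nuclear genes in the table. Their summed level was 46.9 in q1 and 54.9 in q2, and MTERF4 carries much of it. POLRMT, the mitochondrial RNA polymerase, had 3.86 summed FPKM in q1 and 4.73 in q2, and MTERF4, which acts in assembly of the mitochondrial ribosome, had 27.8 and 37.7. The list, which also holds POLG, POLG2, SSBP1 and C10orf2 of mitochondrial DNA replication, had a median log2 ratio of 0.08 over 10 genes. None of them was at least 2-fold higher, where 27.9% of nuclear genes were, and 1 of 10 was at least 2-fold lower, near the 12.02% of nuclear genes. This was TFB2M, which helps the polymerase start transcription, at 2.84 in q1 and 0.663 in q2. Among the 7 genes with a summed FPKM of at least 1 in both conditions, 0 were higher and 0 lower. The shares of nuclear genes with this minimum were 24.2% and 1.97%, and the median of the 7 was 0.23. Regulators of mitochondrial biogenesis had a median of 0.38 over 8 genes. The coactivator PPARGC1B was at least 2-fold higher (0.0463 and 0.183) and GABPB1, the partner of GABPA, at least 2-fold lower (1.75 and 0.596), so 1 of 8 moved past this fold in each direction beside the same 27.9% and 12.02%. Only 4 of these 8 regulators had a summed FPKM of at least 1 in both conditions. Of the 4, 0 were higher and 0 lower, beside 24.2% and 1.97%, with a median of 0.15. The transcription factors GABPA and ESRRG had 2.05 and 2.11 in q1, and 2.84 and 2.59 in q2.

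Of genes that cut, modify or stabilise mitochondrial RNA, REXO2, an exonuclease for very short RNAs, had 39.7 summed FPKM in q1 and 73.1 in q2, and SLIRP, which with LRPPRC keeps mitochondrial mRNAs stable, had 33.6 and 78.4. Over 20 such genes the median log2 ratio was 0.97, with 10 at least 2-fold higher and 0 lower, beside 27.9% and 12.02% of nuclear genes. Among the 13 with a summed FPKM of at least 1 in both conditions, 8 were higher and 0 lower, beside 24.2% and 1.97%. For mitochondrial translation factors the median was 1.41 over 8 genes, with 5 higher (TUFM, C12orf65, MTRF1, GFM1 and MTIF3) and 0 lower, beside 27.9% and 12.02%. Only 4 of these 8 had a summed FPKM of at least 1 in both conditions, with 2 higher, a median of 0.89 and 0 lower, and MTRF1, GFM1 and MTIF3 were below 1 in q1. TUFM, the elongation factor Tu of mitochondria, went from 7.37 to 18.8, and C12orf65, a release factor of stalled mitochondrial ribosomes, from 2.02 to 8.74. These lists are described without a test.

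Markers of cell types could not be set against the mitochondrial genome either. Of 11 skeletal muscle markers in the table, 3 reached 1 FPKM or more in q1 and q2, and the summed level of all 11 was 10.4 in q1 and 23.7 in q2. These 3, MYL1, MYLPF and TNNC2, carry much of this sum. In contrast, MYL2 (1.43 and 0) and ACTA1 (1.12 and 0.995) were lower in q2. CKM, the creatine kinase of muscle, is on chrUn and listed at 0. Of the brown fat markers UCP1 had 0.0391 in q1 and 0 in q2, and CIDEA had 0.733 and 1.29. The summed level of 9 cartilage markers was 970 in q1 and 483 in q2. Of the 8 with values, 5 were at least 2-fold lower in q2, among them COL9A1, COL9A2 and COL9A3, which carry much of the sum, while COL11A1 (87.0 and 109.9) and COL11A2 (126.5 and 134.3) were slightly higher. The summed level of 7 clast markers was 1252 and 4311, with 5 at least 2-fold higher. CTSK alone had 671 and 2935 of it. The 8 cartilage markers with values and the 7 clast markers all had at least 1 FPKM in both conditions. Of nuclear genes with this minimum, 24.2% were at least 2-fold higher in q2 and 1.97% lower. The summed level of the red cell markers in the table, ALAS2 and SLC4A1, was 1.14 and 12.2, with ALAS2 at 0.728 and 11.0. The levels of these markers thus differed between the condition means. In such samples fewer cells of a type and less RNA per cell cannot be told apart. The part of these cells in the ratios of the nuclear partners was not tested.

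A share of total FPKM would rest on few other genes in this table. The sum over all TSS groups was 431581 in q1 and 2416396 in q2. PDZD4 on chromosome X and TBC1D22B on chromosome 2, which were chosen after their values were seen, each have a TSS group of very high FPKM, and these 2 groups together hold 72.4% of it in q1 and 87.2% in q2. PDZD4 alone has 66.5% and 79.8%. With or without it, the 32 mitochondrial groups have 0%.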

How the data were processed

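Laser-captured RNA of 9 opossums was sequenced by the authors. Reads were processed with TopHat, Cufflinks and Cuffdiff according to the submitters' processing notes, under the Tuxedo protocol according to the paper. Their versions, the genome build and the annotation were not given in the sources used here. For each TSS group the authors deposited condition means in FPKM per TSS group, together with Cuffdiff's fold changes, test statistics, p-values and q-values, which were not used here. A shorter deposited table of called tests was not used either.

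Members were the rows for q2 against q1 with a locus on chrMT. Starts are printed 1 higher than deposited, which counts from 0 (the first locus runs from 0 to 70). log2 ratios were computed from the FPKM without a pseudocount, where both values were above 0. Gene values are sums over TSS groups, and a group that names several genes counted for each. All 32 members were described, and from each list of nuclear genes the 2 with the highest mean FPKM are named. The members and all lists were chosen with earlier results of these data known. The functions were tested on simulated data. Python 3.11.15, numpy 2.4.6, pandas 2.3.3 and matplotlib 3.10.9 were used. Alternatives covered the fold, a filter, a pseudocount, centring and the denominator of shares.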

Additional observations from a re-analysis of the deposited data

How the results depend on the processing

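The share of total FPKM in mitochondrial TSS groups stayed at 0% in q1 and q2 without loci shorter than 200 bases and without the nuclear TSS group of highest FPKM. Over tested TSS groups only it is 0% by construction, because none of the members is marked as tested. The counts of members at least 2-fold higher or lower in q2 stayed at 0 with folds of 1.5 and 4, a minimum mean FPKM of 1, a pseudocount of 1 and centring on the nuclear median. These shares and counts follow from values of 0 or from a lack of members, and say nothing about the stability of a biological result. The median log2 ratios planned for protein, rRNA and tRNA genes have no value under any planned setting without a pseudocount, and with one they would equal 0 by construction, so they were not computed. Shares weighted by locus length were not run, because 24 of the 32 members have only the bounds of a locus shared by several TSS groups. The minimum FPKM of 1 in both conditions for the nuclear lists was chosen after seeing the data. No paired analysis was possible because the table holds no value per animal. Depth per library is unknown, so no upper limit can be set on a value of 0.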

Other observations

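The unplaced sequence chrUn, which is listed at 0 throughout like the mitochondrial genome, holds 456 gene symbols, of which 444 occur on no other sequence of the table. These genes were picked for their known roles after their values of 0 were seen. Among them are COL1A2, a chain of the main collagen of bone, COL6A1, a collagen of the matrix around cells, and CHAD, ASPN and OGN, leucine-rich proteins of cartilage and bone matrix. TCIRG1, a subunit of the proton pump with which clasts acidify bone, is on chrUn as well. All 6 of these genes are listed at 0 in q1 and q2. Of the 1229 TSS groups on chrUn, 1020 have a locus of over 1000 bases, a length that can include introns. Why they are listed at 0 was not tested.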
